A study of Sus scrofa with 10 samples.

Results

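The genes described here are 5 genes of ketone body metabolism and of the liver's response to fasting, *ACAT1*, *BDH1*, *PDK4*, *ANGPTL4* and *UCP2*, chosen by name and not by their values. A probe set, the group of short probes that an Affymetrix array reads as 1 transcript, was taken as a member when the platform annotation gave it 1 of these symbols and no other. This found 7 of the 23999 porcine probe sets, of which 10069 carry a single symbol and stand for 6765 genes. *BDH1*, *PDK4* and *ANGPTL4* had 2 probe sets each, *UCP2* had 1, and *ACAT1* had none, so *ACAT1* is not analysed here.

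The liver RNA came from 10 female pigs of a backcross, in which Iberian boars were mated to Landrace sows and the F1 boars were mated to Landrace sows again. The 5 animals of the H group and the 5 of the L group were taken, with regard to pedigree and sex, from animals at the opposite ends of a principal component of carcass and muscle fatty acid traits, with more polyunsaturated fatty acids in the muscle of H animals and more saturated and monounsaturated ones in that of L animals. All 10 were raised on the same feeding regime, none carried a treatment or a transgene, and the methods give 1 average slaughter age for all of them, with no age for each group. How long before slaughter the animals last ate is not stated in the methods or labels, so the fed or fasted state of each is unknown. Each animal gave 1 array and is the replicate. Full sibs and other sibs from the same dam were placed in opposite groups, but which animals these are is not given, and kinship was not modelled.

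When glucose is scarce, adipose tissue releases fatty acids, and the liver oxidises them in its mitochondria and turns the acetyl-CoA into acetoacetate and beta-hydroxybutyrate, the ketone bodies that other tissues burn. The nuclear receptor PPARA senses fatty acids and drives many genes of this response. The pig is known as a species that makes few ketone bodies when fasted. *ACAT1* encodes the mitochondrial thiolase at the first step of ketone body synthesis, and *BDH1* the mitochondrial dehydrogenase that interconverts the ketone bodies acetoacetate and beta-hydroxybutyrate. *PDK4* encodes a kinase that switches off the pyruvate dehydrogenase complex, which spares glucose during fasting. *ANGPTL4* encodes a secreted inhibitor of lipoprotein lipase, and *UCP2* a carrier of the mitochondrial inner membrane.

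All values are log2 intensities, so a difference of 1 is a 2-fold difference. Over the 10 arrays the medians lay between 3.78 and 3.85, and the lowest value on any array was 2.19. A probe set within 0.5 of that value is called near the lowest value, and 9487 of the 23999 porcine probe sets (39.5%) were so on all 10 arrays. Of the 14 hepatocyte markers listed, the 12 with a probe set had means between 10.56 and 15.62. Probe sets of all 7 skeletal muscle markers and all 5 neutrophil markers that the array carries were near the lowest value on all arrays, as were those of *ADIPOQ*, *CIDEA* and *LIPE* among the 6 adipocyte markers with a probe set. Of the other adipocyte markers, *FABP4* averaged 3.64 and reached 5.05, *LEP* had probe sets at 3.20 and 2.19, and *PCK1*, which hepatocytes also express, averaged 13.36. In whole liver RNA, fewer cells of a type and less RNA per cell cannot be told apart.

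*PDK4* was well above the lowest value, *ANGPTL4* and *BDH1* lay between, and *UCP2* gave no measurable signal. The probe sets of *PDK4* had means of 12.22 and 10.90, higher than 98.1% and 95.6% of all porcine probe sets. Those of *ANGPTL4* had means of 9.41 and 8.14, above 89.4% and 80.5%. Those of *BDH1* had means of 7.92 and 5.55, above 78.7% and 59.6%. A probe set's brightness depends also on its probes, so these shares place each probe set on the array and do not rank the genes by their RNA.

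*UCP2* had the same value, 2.24, in all 10 livers, which is 0.05 above the lowest value on the array. This was common, since 5504 porcine probe sets (22.9%) had an identical value on all 10 arrays. Of these, 5471 were under 3. Near the lowest value the array gives a bound and no level, so neither a spread over animals nor a difference between H and L can be given for *UCP2*. The related carrier gene *UCP3* was near the lowest value too, with means of 2.25 and 2.19 for its probe sets. *UCP2* is expressed by macrophages in many tissues, and of the 14 macrophage markers with a probe set, 11 were measured, with means between 5.35 and 12.97.

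**Figure D1:**
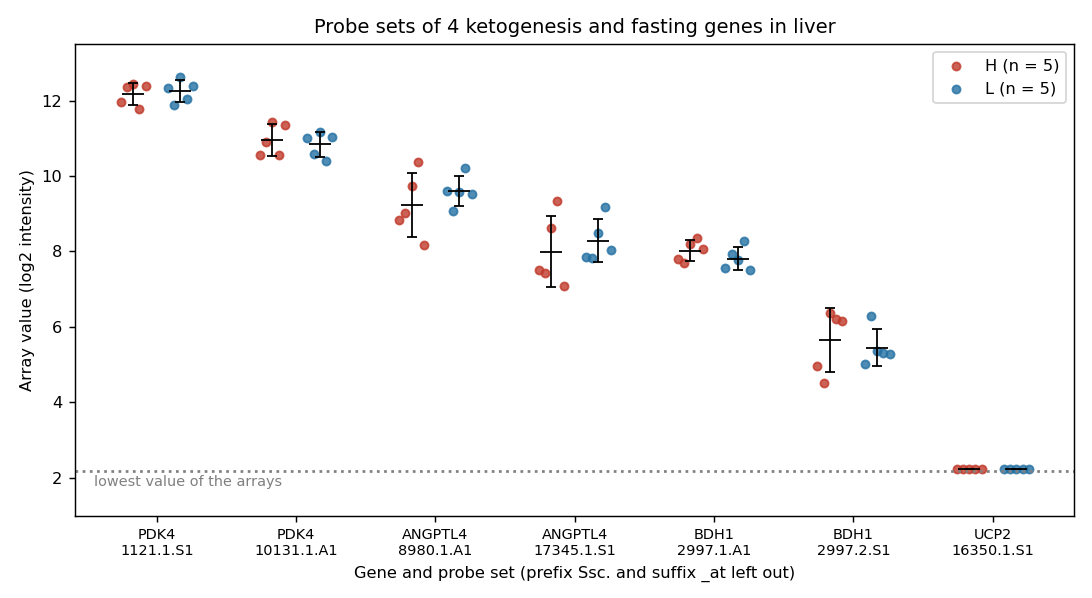
Log2 intensity of the 7 probe sets in each of the 10 animals, with H and L marked and a line at the lowest value of the array, 2.19. The *PDK4* probe sets lie highest, the *UCP2* probe set has 1 value of 2.24 in all animals, and H and L overlap in each probe set that varies.

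*PDK4*, as the mean of its probe sets, had an SD of 0.31 over the 10 animals. Its brighter probe set read 11.95, 12.35, 12.43, 11.79 and 12.38 in H1 to H5, and 12.35, 11.88, 12.61, 12.05 and 12.38 in L1 to L5. The dimmer read 10.55, 10.91, 11.43, 10.55 and 11.35 in H1 to H5, and 11.02, 10.58, 11.17, 10.40 and 11.02 in L1 to L5. In both probe sets H1, H4, L2 and L4 were the lowest 4 animals. As the mean of both probe sets these 4 lay between 11.17 and 11.25 and the other 6 between 11.63 and 11.93, and each of these ranges held animals of both groups. The whole range was 0.76, or 1.70-fold.

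*PDK4* averaged 11.57 ± 0.35 (SD, n = 5) in H and 11.55 ± 0.30 in L. The difference of 0.02 (SE 0.19) between H and L had a 95% interval from -0.40 to 0.44, which is 0.758 to 1.36-fold (limma adjusted p = 0.997; exact permutation p = 0.944). Its probe sets differed in sign, with H minus L at 0.12 (SE 0.22) for the dimmer and -0.07 (SE 0.17) for the brighter, neither larger than its error. The sign of the gene's difference also turned when H3, H5, L2 or L4 was left out, between -0.07 and 0.12 over all animals left out in turn.

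*ANGPTL4* had SDs of 0.65 and 0.75 for its brighter and dimmer probe sets. Its brighter probe set read 8.85, 9.01, 9.74, 10.38 and 8.17 in H1 to H5, and 9.60, 9.08, 9.57, 10.20 and 9.51 in L1 to L5. The dimmer read 7.51, 7.42, 8.63, 9.34 and 7.09 in H1 to H5, and 7.84, 7.83, 8.49, 9.18 and 8.05 in L1 to L5. Both probe sets put H4 first, L4 second and H5 last, and the L animals lay within the range of the H animals. The gene value ran from 7.63 in H5 to 9.86 in H4, a range of 2.23 or 4.68-fold.

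*ANGPTL4* averaged 8.61 ± 0.89 (SD, n = 5) in H and 8.94 ± 0.47 in L. H minus L was -0.32 (SE 0.40), with a 95% interval from -1.21 to 0.57, or 0.431 to 1.48-fold (limma adjusted p = 0.985; exact permutation p = 0.492). It was below 0 in both probe sets, at -0.36 (SE 0.38) and -0.28 (SE 0.44). Since H5 held the lowest and H4 the highest value, the difference was -0.08 without H5 and -0.63 without H4.

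*BDH1* differed in spread between its probe sets, with an SD of 0.30 for the brighter and 0.66 for the dimmer. Its brighter probe set read 7.80, 7.69, 8.19, 8.37 and 8.08 in H1 to H5, and 7.56, 7.95, 7.79, 8.28 and 7.50 in L1 to L5. The dimmer read 4.98, 4.51, 6.37, 6.21 and 6.17 in H1 to H5, and 5.01, 6.30, 5.36, 5.31 and 5.28 in L1 to L5. On the dimmer probe set, H3, H4, H5 and L2 stood between 6.17 and 6.37, and the other 6 animals at 5.36 or below. As the mean of both, the range was 1.19, or 2.28-fold, from H2 to H4. The gene ID that the platform gives for *BDH1* is not in the reference name table, so the platform's symbol was kept.

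*BDH1* averaged 6.84 ± 0.55 (SD, n = 5) in H and 6.63 ± 0.33 in L. H minus L was 0.20 (SE 0.26), with a 95% interval from -0.38 to 0.78, or 0.771 to 1.72-fold (limma adjusted p = 0.985; exact permutation p = 0.484). Both probe sets were higher in H, by 0.21 (SE 0.18) and 0.20 (SE 0.39). The difference was 0.39 without H2 and 0.09 without H4.

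**Figure D2:**
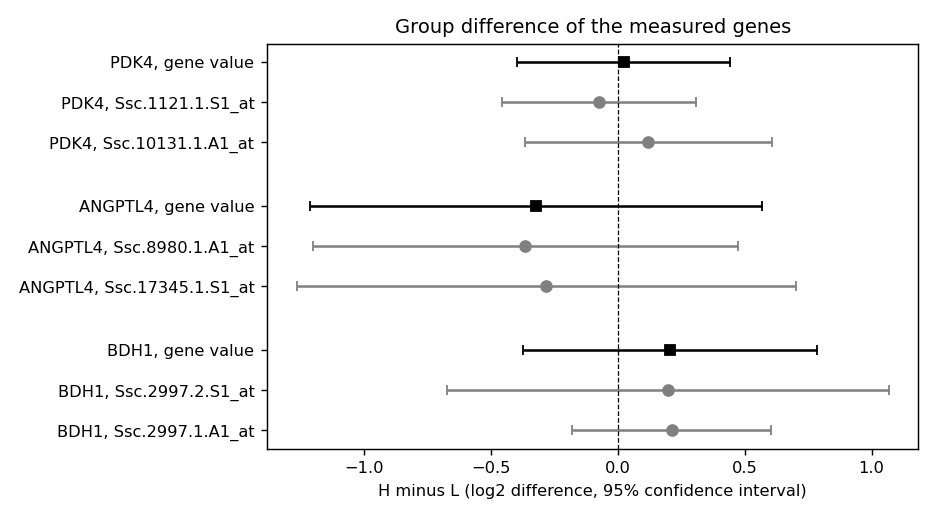
H minus L in log2 units for *BDH1*, *PDK4* and *ANGPTL4* and for each of their 6 measured probe sets, with 95% intervals from limma. Every interval holds 0.

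No gene passed an adjusted p of 0.05 in H against L, 0 of the 4730 tested (0%), and no probe set of the 11756 tested (0%), so the members share this with the whole array. Without adjustment, 125 genes (2.64%) and 363 probe sets (3.09%) had a limma p under 0.05, and none of the 3 member genes or their 6 probe sets was among them. H and L did not overlap in 17 genes (0.359%) and 48 probe sets (0.408%), while they overlapped in all 3 genes and all 6 probe sets here. With 5 animals against 5, the exact test can reach a p of 0.00794 at the lowest. The intervals above hold changes in both directions, so a p that misses the threshold does not show that the groups are alike.

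As the mean of both probe sets, the SD over the 10 animals was 0.69 for *ANGPTL4*, 0.44 for *BDH1* and 0.31 for *PDK4*, beside a median of 0.22 over all genes tested. It was larger than that of 96.3%, 88.3% and 71.9% of these genes, in the same order. Set beside genes of a like mean, the shares were 96.8% of 726 for *ANGPTL4*, 86.7% of 804 for *BDH1* and 75.9% of 241 for *PDK4*. By probe set, the SD was larger than that of 95.6% and 97.1% of probe sets tested for the brighter and dimmer of *ANGPTL4*, 61.1% and 77.8% for *PDK4*, and 66.9% and 95.7% for *BDH1*. The place of *BDH1* between the others thus rests on its dimmer probe set, since its brighter one, with an SD of 0.30, lay within the 0.28 to 0.36 of *PDK4*.

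**Figure D3:**
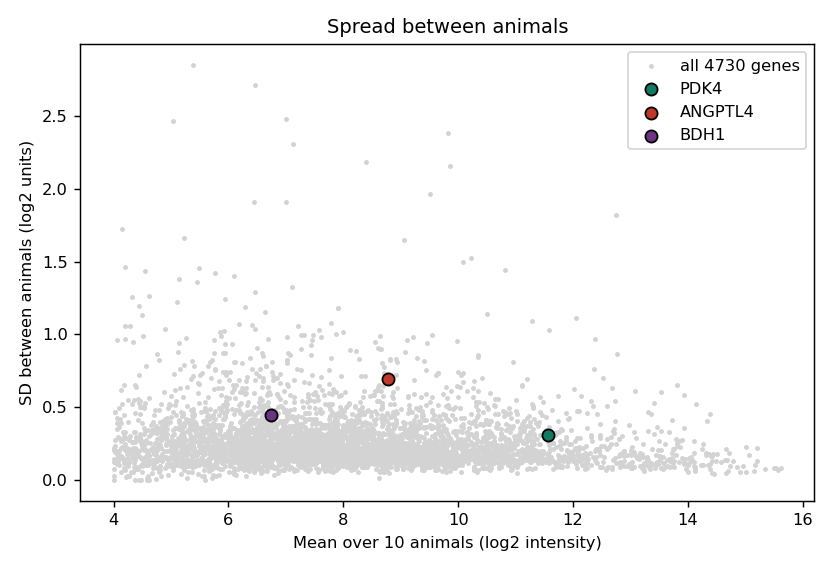
SD over the 10 animals against the mean log2 intensity, 1 point for each gene tested, with the 3 member genes marked. *ANGPTL4* at an SD of 0.69 lies near the top of genes of its mean, *BDH1* at 0.44 (0.30 and 0.66 by probe set) below it and *PDK4* at 0.31 closer to the median.

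The probe sets of a gene followed each other over the animals to different degrees. For *ANGPTL4* Pearson's r was 0.942 and Spearman's rho 0.952 (n = 10 animals, permutation test, adjusted p of r = 6e-05 over 3 genes). For *PDK4* r was 0.849 and rho 0.867 (adjusted p of r = 0.0047), and for *BDH1* r was 0.665 and rho 0.636 (adjusted p = 0.0408 and 0.0551). Without the 2 animals farthest from the median, r was 0.883, 0.901 and 0.796 in that order. The brighter *BDH1* probe set stood above the dimmer one by 1.64 to 3.18 over the animals, a wider range than for *PDK4* (1.005 to 1.65) and *ANGPTL4* (1.02 to 1.76).

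*BDH1* moved with a measure of RNA quality. On this type of array, the labelling starts at the 3′ end of a transcript, and the difference between 3′ and 5′ probe sets of *GAPDH* grows as RNA degrades or labelling falls short. That difference was 1.70, 1.95, 1.39, 1.58 and 1.43 in H1 to H5, and 2.27, 1.38, 1.46, 1.72 and 1.77 in L1 to L5, with 1.61 ± 0.23 (SD, n = 5) in H and 1.72 ± 0.35 in L (exact permutation p = 0.579). *BDH1* was lowest in H2 and L1, the animals with the largest difference. Over the 10 animals r was -0.761 and rho -0.782 (permutation test, p = 0.0079, adjusted p = 0.0238 over 3 genes). With each group centred on its mean, r was -0.749 (adjusted p = 0.0342), and without H3 and H4 it was -0.772 (adjusted p = 0.0696). For *PDK4* and *ANGPTL4* r was -0.04 and -0.03. Of 4721 genes that vary, 176 (3.73%) had an r with the *GAPDH* difference at least as far from 0 as that of *BDH1*. With the *GAPDH* difference as a covariate, H minus L of *BDH1* was 0.08 (SE 0.19), in place of 0.20. The change was larger for the dimmer probe set, at 8.9e-05 (SE 0.28) in place of 0.20. The brighter one was at 0.15 (SE 0.16) in place of 0.21.

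**Figure D4:**
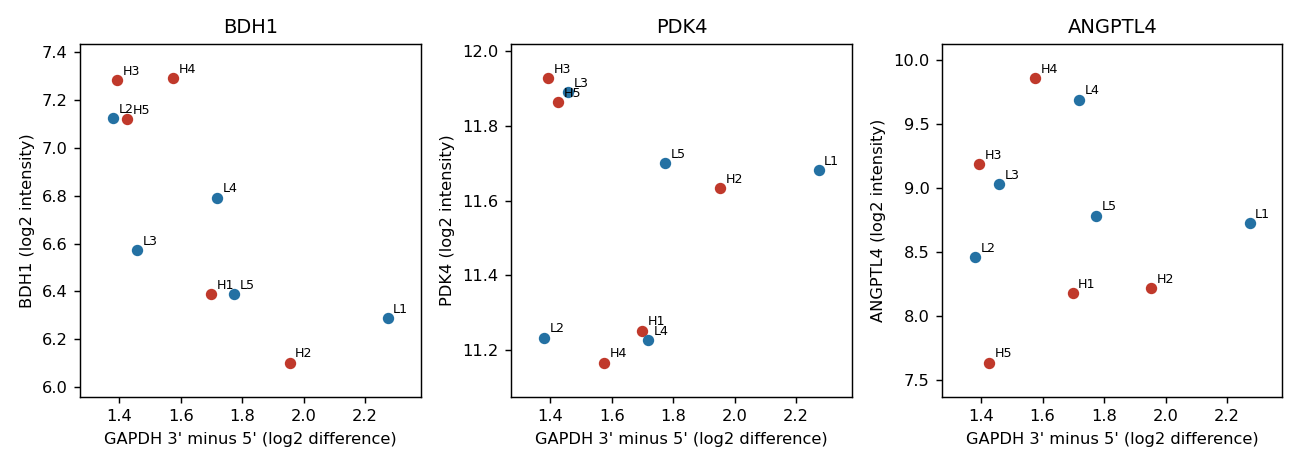
Log2 value of *BDH1*, *PDK4* and *ANGPTL4* against the *GAPDH* 3′ minus 5′ difference in log2 units, 1 point per animal, with H and L marked. *BDH1* falls as the difference grows (r = -0.761), while *PDK4* and *ANGPTL4* have an r of -0.04 and -0.03.

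No pair of the 3 genes had a correlation over the animals that passed the adjustment. Pearson's r was -0.116 for *BDH1* and *PDK4*, 0.309 for *BDH1* and *ANGPTL4*, and -0.315 for *PDK4* and *ANGPTL4* (n = 10 animals, permutation test, adjusted p = 0.736, 0.571 and 0.571 over 3 pairs). Without the 2 animals farthest from the median, the second r was -0.106 and the third 0.315, so the sign of both rests on those animals.

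Around *BDH1*, 15 genes of ketone body synthesis, use and export were listed, 6 had a probe set and 4 were measured. *OXCT1*, the enzyme that extrahepatic tissues need to burn ketone bodies, was near the lowest value on all arrays, with means of 2.21 and 2.22, and so was *SLC16A3*, a lactate exporter. *BDH2*, a cytosolic dehydrogenase, averaged 9.86 ± 0.25 (SD, n = 5) in H and 9.89 ± 0.33 in L. *ACAT2* and *HMGCS1*, of the cytosolic route to cholesterol, differed by 0.23 (SE 0.40) and 0.09 (SE 0.53). H was higher in 3 of the 4 genes, with a median difference of 0.15, beside a median of -0.04 over all genes tested, and none had an unadjusted p under 0.05.

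Around *PDK4*, 11 of 17 listed genes of the pyruvate dehydrogenase complex and its neighbours were measured. H was higher in 5 and lower in 6, with a median difference of 0.00, and none passed an unadjusted p of 0.05. *PDHA1*, the subunit that *PDK4* phosphorylates, was at 7.28 ± 0.35 (SD, n = 5) in H and 7.53 ± 0.26 in L, a difference of -0.25 (SE 0.18). *DLD*, the dehydrogenase subunit shared with other complexes, differed by 0.21 (SE 0.12) and *LDHB*, a lactate dehydrogenase chain, by -0.14 (SE 0.09). The brightest of the list were *LDHB* at a mean of 14.08 and *MPC1*, a subunit of the mitochondrial pyruvate carrier, at 13.72. The kinase gene *PDK3* fell under the mean of 4 required for a test, at 3.95 and 2.19.

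Around *ANGPTL4*, 12 angiopoietin-like proteins, lipases and their partners were listed, and 5 had a probe set. *LPL*, the lipase that *ANGPTL4* inhibits, was near the lowest value on all 10 arrays at 2.19, as were *GPIHBP1*, which anchors that lipase to capillaries, and *ANGPTL2*. *LIPC*, the hepatic lipase, was measured at 8.06 ± 0.27 (SD, n = 5) in H and 7.96 ± 0.46 in L, a difference of 0.10 (SE 0.22). Besides *ANGPTL4* it was the only gene of the list with a value.

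Around *UCP2*, 6 of 11 uncoupling proteins and related carriers were measured. All 6 were lower in H, with a median difference of -0.17, beside -0.04 over all genes tested. Of the 125 genes on the array with an unadjusted p under 0.05, 87 were lower in H and 38 higher. Among the 6, *SLC25A30*, a carrier of the uncoupling protein family, had the only unadjusted p under 0.05. It read 7.76, 8.56, 7.74, 8.55 and 7.85 in H1 to H5, and 8.93, 8.65, 9.08, 8.45 and 8.55 in L1 to L5, so H2 and H4 lay among the L animals. The difference was -0.64 (SE 0.20, limma adjusted p = 0.985). *SLC25A14* differed by -0.15 (SE 0.13) and *SLC25A11* by -0.18 (SE 0.16). *SLC25A4* and *SLC25A6*, adenine nucleotide translocators, were the brightest, with means of 12.90 and 12.11.

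The probe sets of *PPARA* itself were close to the lowest value, with means of 2.70 and 2.20. Those of *RXRA*, its partner, were near it on all arrays. Such readings give no level and do not show that the RNA was absent. Of 36 genes listed as PPARA and its fasting targets, 27 had a probe set and 24 were measured. H was higher in 10 and lower in 14, with a median difference of -0.09, and 0 had an unadjusted p under 0.05. *SLC25A20*, the carnitine-acylcarnitine carrier, averaged 9.55 ± 0.27 (SD, n = 5) in H and 9.87 ± 0.31 in L (difference -0.32, SE 0.17). *ACAA1*, a peroxisomal thiolase, differed by -0.19 (SE 0.12) and *ACADM*, the medium-chain acyl-CoA dehydrogenase, by 0.17 (SE 0.11). *ACSL1*, which activates fatty acids, and *ACADM* were the brightest, with means of 14.87 and 14.36.

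No relation of *ANGPTL4*, *BDH1* or *PDK4* with these genes over the animals passed the adjustment. For *ANGPTL4*, the r with the mean of the 24 genes was 0.646 and the rho 0.661 (n = 10 animals, permutation test, p = 0.0415, adjusted p = 0.307 over 9 relations of the 3 genes with 3 lists). Without H4 and H5 r was 0.847 (adjusted p = 0.0749). The mean takes the genes unscaled, so a gene of wide spread, such as *PLIN2* with an SD of 1.65, weighs more in it. The r of *ANGPTL4* with single genes of the list had both signs, from -0.706 to 0.793, so the list did not follow it as a whole. The single genes were then compared, 69 relations in all, and 6 had an unadjusted p under 0.05 and 0 an adjusted one. Of the 6, 3 were of *ANGPTL4*, of which 1 was negative. *CPT1A*, which encodes the carnitine palmitoyltransferase that admits fatty acids to the mitochondrion, had the smallest p. It read 10.81, 11.84, 12.09, 12.92 and 11.71 in H1 to H5, and 12.18, 11.48, 12.61, 12.69 and 11.85 in L1 to L5, highest in H4 and L4 like *ANGPTL4*. The r was 0.793 and rho 0.879 (permutation p of r = 0.0064, adjusted p = 0.408, and 0.112 for rho), 0.815 without H4 and H5 and 0.780 with each group centred. *PLIN2*, a coat protein of lipid droplets, had an r of 0.687 and a rho of 0.794 with *ANGPTL4* (adjusted p = 0.419 for r), and ran from 6.51 in H1 to 11.86 in L3. *ACAA2*, a mitochondrial thiolase of fatty acid oxidation, ran against *ANGPTL4*, with an r of -0.706 and a rho of -0.612 (adjusted p = 0.408 for r), -0.794 with each group centred and -0.440 without H4 and H5. The other 3 were *BDH1* with *ETFA*, an electron transfer flavoprotein subunit (r = 0.759), *BDH1* with *ACADVL*, the very long-chain acyl-CoA dehydrogenase (r = 0.725), and *PDK4* with *FABP1*, the liver fatty acid-binding protein (r = -0.614), with adjusted p of 0.408, 0.408 and 0.540.

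**Figure D5:**
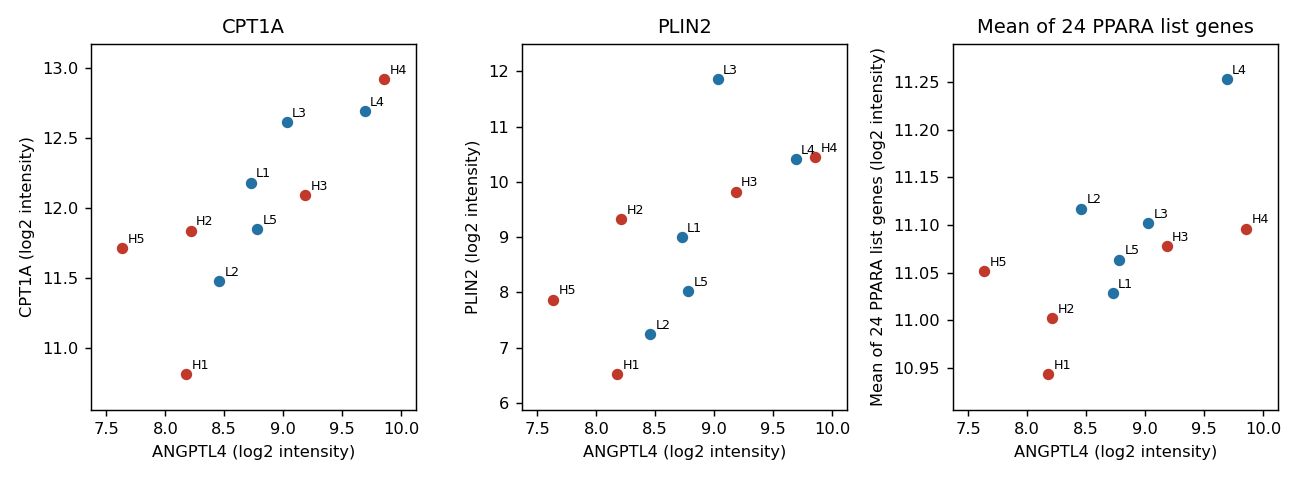
Log2 value of *CPT1A* and of *PLIN2* against that of *ANGPTL4*, 1 point per animal, with H and L marked. *CPT1A* rises with *ANGPTL4* (r = 0.793, adjusted p = 0.408), and H4 and L4 lie at the high end of both.

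Among 4720 other genes ranked by their r over the same 10 animals, *ANGPTL4* was most like *ADAMTS1*, a secreted metalloprotease (0.909), *TIMM13*, of the mitochondrial import machinery (0.898), and *SERPINA6*, the corticosteroid-binding globulin (0.893). *CPT1A* was 42nd in that order and *PLIN2* 194th. *BDH1* was most like *PEX7*, a receptor for peroxisomal import (0.917), *GGACT* (0.895) and *CERS2*, a ceramide synthase (0.879). The r of these genes with the *GAPDH* difference was -0.921, -0.657 and -0.826. *PDK4* was most like *PIK3CG*, a phosphoinositide 3-kinase subunit (0.825), *UBXN4* (0.808) and LOC102160313 (0.799). *PIK3CG* had the identical value of 5.35 in H1, H5 and L1. These are the highest of many values over 10 animals, with all genes read on the same arrays, and they are descriptions without a test.

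The cell type markers did not differ between H and L past an adjusted p of 0.05. The macrophage markers were lower in H in 10 of 11 genes, with a median difference of -0.19, beside -0.04 over all genes tested. The mean over the macrophage list ran from 8.73 to 9.36 in H and from 8.88 to 9.49 in L. H was lower in 4 of 4 T and NK, 5 of 5 endothelial and 8 of 12 hepatocyte markers, with median differences of -0.20, -0.06 and -0.02. It was lower in 2 of 7 stellate cell and 1 of 2 cholangiocyte markers. The single measured B and plasma cell marker was lower in H, and the single erythroid and adipocyte markers were higher. *FCER1G*, an Fc receptor chain, was the only cell type marker with an unadjusted p under 0.05, at 7.19 ± 0.26 (SD, n = 5) in H and 7.60 ± 0.22 in L (difference -0.41, SE 0.15, limma adjusted p = 0.985). *MARCO* and *ITGAM* were near the lowest value on all arrays. The mean of the macrophage list had an r of 0.607 and a rho of 0.709 with *PDK4* (n = 10 animals, permutation test, p = 0.0682 and 0.0263, adjusted p = 0.307 and 0.162), and its part in the *PDK4* values was not tested. The means over the hepatocyte markers ran from 14.37 to 14.53 in H and from 14.36 to 14.51 in L.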

How the data were processed

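Liver RNA of 10 animals was hybridised to Affymetrix GeneChip Porcine arrays. Scanning used GCOS, background adjustment and normalization GCRMA, and the authors deposited log2 values. GCOS, GCRMA and RMA also stand in the submitters' processing notes, without versions. The table holds 24123 probe sets, of which 124 controls were left out.

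Symbols came from the platform annotation, updated by Entrez ID through a RefSeq table (9961 of 10069, while 108 kept the platform name). A further 198 probe sets had several symbols and 13732 none. That table's assembly is Sscrofa11.1, and no coordinates or sequences are given. Probe sets averaging 4 or more were tested with limma 3.58.1 in R 4.3.3 (lmFit, eBayes, two-sided, Benjamini-Hochberg, no covariate), and a gene's value is the mean of its tested single-symbol probe sets. Exact permutation tests used all 252 regroupings, two-sided. Correlations used 100000 permutations, two-sided, with scipy 1.17.1 under Python 3.11.15 (numpy 2.4.6, pandas 2.3.3, matplotlib 3.10.9). A test of the fit on simulated data was also run, and its result is not given here. The number of arrays limits the precision.

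The members, lists and tests were chosen with earlier results of these data known. The text names every member, of each pathway list the 3 genes with the smallest p and the 2 with the highest mean, for each member the 3 genes most like it, and cell type markers with an unadjusted p under 0.05. *PPARA*, the genes of single relations, the adipocyte markers, *NR3C1*, *CEBPD*, *FKBP5* and the genes near the lowest value were named after their values were seen. The families on probe sets of a gene, single PPARA list genes and *GAPDH* were added after seeing the data. Alternatives were other filters, normalizations, centrings, weights, covariates, blocks and gene summaries, and leaving out each animal.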

Additional observations from a re-analysis of the deposited data

Results flagged for a closer look

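Of 30 groups of 5 animals examined for a value standing apart, 1 was found, and chance alone gives about 1 in 20. On the dimmer *BDH1* probe set, L2 read 6.30 while the nearest L animal, L3, read 5.36. This gap was 0.733 of the range of the group, above Dixon's limit of 0.71. The *GAPDH* 3′ minus 5′ difference of L2 was 1.38, the lowest of the 10 animals, and its part in the value was not tested.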

How the results depend on the processing

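The count of genes or probe sets past an adjusted p of 0.05 was 0 in H against L under every alternative run. The counts without adjustment ranged from 237 (without L4) to 685 (without L2) for probe sets, with 617 without H2, and from 90 to 281 (without L2) for genes, with 213 without H2. *PDK4* alone of the 3 genes turned in sign, to -0.074 with its brightest probe set and over a range of -0.068 to 0.12 when 1 animal was left out. Its brighter probe set ranged from -0.17 to 0.025, above 0 without H4 or L3. Without the 2 animals farthest from the median, r turned to -0.106 for *BDH1* with *ANGPTL4*, 0.315 for *PDK4* with *ANGPTL4*, 0.335 for *PDK4* with the PPARA list and -0.281 for *PDK4* with the gluconeogenesis list. With each group centred, r of *ANGPTL4* with the macrophage list turned to -0.027. Without the 2 animals, 1 relation with single PPARA list genes passed the adjustment (*BDH1* with *ACADVL*, r = 0.949) in place of 0. With the *GAPDH* difference 0 passed in place of 1, while the r of *BDH1* was -0.772 in place of -0.761. The cause of these changes was not tested. Whether animals of the same number are kin is not given. The correlation of their deviations was over 0.1 in 1 of 5 pairs, from -0.237 to 0.281. The highest was that of H4 and L4, which were each other's best match. These values cannot show whether the numbers pair the samples. With the number as a replicate block, 140 genes and 393 probe sets had an unadjusted p under 0.05, in place of 125 and 363. The difference of *ANGPTL4* was -0.32 with an SE of 0.21 in place of 0.40. The SE was 0.13 in place of 0.19 for *PDK4*, and 0.27 in place of 0.26 for *BDH1*. A probe set near the lowest value gives no level, which limits *UCP2*.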

Other observations

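Of 29 genes listed for the fasting hormone and gluconeogenesis response, 20 were measured, 13 higher and 7 lower in H, with a median difference of 0.08 and 0 past an adjusted p of 0.05 in limma. *SESN1*, a stress-induced sestrin, had the only unadjusted p under 0.05, at 8.25 ± 0.22 (SD, n = 5) in H and 7.96 ± 0.18 in L (difference 0.29, SE 0.12, limma adjusted p = 0.985). *FOXO1*, a transcription factor that insulin restrains, and *TAT*, tyrosine aminotransferase, differed by 0.25 (SE 0.16) and 0.47 (SE 0.39). *MT1A*, a metallothionein, and *FBP1*, fructose bisphosphatase, were the brightest, with means of 15.20 and 14.42. *SDS*, serine dehydratase, and *IGFBP1*, an insulin-repressed binding protein, were chosen after their values were seen. *SDS* ran from 3.58 in H5 to 9.49 in H1, with L4 at 3.75, and *IGFBP1* from 7.96 in H4 to 13.16 in H3. H minus L was 1.44 (SE 1.29) for *SDS*, the largest difference of the list, and 0.33 (SE 0.85) for *IGFBP1*. Neither passed an unadjusted p of 0.05 in limma. Their SDs of 2.31 and 1.44 were larger than those of 99.9% and 99.6% of genes tested, the highest shares of the list. The lowest were 28.8%, 45.3%, 49.9% and 56.8%, for *FBP1*, *NR3C1*, *MT1A* and *SESN1*. The rest of the list lay between 60.5% for *CEBPD* and 98.2% for *FKBP5*.

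Of 20 genes listed for lipogenesis and glycolysis in the fed state, 7 were measured, 3 higher and 4 lower in H, with a median difference of -0.08 and 0 past an adjusted p of 0.05 in limma. *PGD*, of the pentose phosphate pathway, had the only unadjusted p under 0.05, at 6.45 ± 0.08 (SD, n = 5) in H and 6.71 ± 0.20 in L (difference -0.26, SE 0.10, limma adjusted p = 0.985). *FASN*, fatty acid synthase, differed by 0.63 (SE 0.32) and *ELOVL6*, a fatty acid elongase, by -0.49 (SE 0.34), neither past an unadjusted p of 0.05. *TKT*, transketolase, and *SCD*, stearoyl-CoA desaturase, were the brightest, with means of 9.48 and 8.92. *SREBF1* and *ACACA* were near the lowest value on all arrays.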
